A study of Mus musculus with 10 samples.

Results

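The 36 genes described here carry glucose into the cell, break it down to pyruvate, and then lead the pyruvate either to lactate or into the mitochondrion. They were taken as a list of gene symbols, and a gene was kept where its reads over the 10 libraries summed to at least 10. All 36 listed genes met that rule, out of 31053 genes in the count files. Of these, 35 were among the 11215 genes with enough reads to be tested, and Pfkfb2, with 34 reads in all, was not. By role, 5 genes act in glucose entry, 6 at the committed step and its control, 11 in triose and lower glycolysis, 4 in lactate formation and transport, and 10 in the entry of pyruvate into mitochondria.

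All libraries came from E14, a line of mouse embryonic stem (ES) cells derived from the blastocyst, here carrying an integrated construct from which the nuclear receptor Esrrb can be induced with doxycycline (DOX). In the group called 2iL (n = 4), cells were kept in N2B27, a serum-free medium, with LIF, 1 µM PD0325901 (which blocks MEK) and 3 µM CHIR99021 (which blocks GSK3), and received no DOX. In the group 96 h no DOX (n = 3), 2iL was taken away and cells were collected after 96 h in N2B27 alone. In the group 96 h DOX (n = 3), DOX was present over the same 96 h. The construct was thus present in every group, and neither 2iL cells given DOX nor cells without the construct were analysed here, so that effects of DOX itself and of induced Esrrb cannot be told apart. The labels do not say whether the line is 1 clone or whether the libraries of a group came from separate cultures, so p-values measure the spread between these libraries, which may be technical. RNA was taken from whole cultures, in which fewer cells of a type and less RNA per cell cannot be told apart.

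Glycolysis turns glucose into pyruvate in the cytosol with a small gain of ATP. Lactate dehydrogenase then reduces pyruvate to lactate, which leaves through monocarboxylate transporters, or the mitochondrial pyruvate carrier and the pyruvate dehydrogenase complex feed it into the TCA cycle. Many steps are run by isozymes from separate genes that differ in tissue distribution and in control. Naive mouse ES cells are known to use both glycolysis and respiration, and the primed cells of the later epiblast are known to lean more on glycolysis and lactate output; HIF1 and Myc family factors are known activators of many of these genes.

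Libraries held 1253620 to 4715450 reads in genes, and levels below are CPM, the reads of a gene relative to the TMM-scaled library size. The 7 naive ES markers summed to 1835 to 2116 CPM on the library total in 2iL, 95.4 to 141 at 96 h without DOX and 391 to 507 with DOX. The 5 epiblast markers summed to 201 to 239, 2408 to 2788 and 1111 to 1769. The 7 markers of extraembryonic endoderm summed to 5.06 to 8.48, 15.8 to 25.6 and 261 to 477, with 0 of 7 at 0 in every DOX library. The reads of Esrrb were 229 to 378 CPM in 2iL, 13.6 to 32.0 without DOX and 12.8 to 27.0 with DOX; whether the induced transcript carries the 3′ end that is counted is not stated in the sources, so this is no check of the DOX label. One library stood apart: 96 h DOX exp1_2 had the fewest reads, 9 of 9 fibroblast markers above 0 with a sum of 2214 CPM (2.42 to 22.9 in the other 9 libraries), 4 of 6 liver markers above 0 with 30.3 CPM (0 to 1.48 in the others) and 4 of 6 macrophage markers above 0 with 63.8 CPM (8.33 to 30.8). Where leaving this library out ended the call of a gene named below, the value without it is given.

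Removal of 2iL without DOX was accompanied by changes among isozymes and transporters in each of the 5 roles, while the abundant enzymes Aldoa, Gapdh and Pkm did not pass the test. Slc2a1 (GLUT1, a glucose transporter), Slc16a3 (MCT4, a lactate exporter), Pfkl and Eno3 rose. Slc2a3 (GLUT3, a glucose transporter of high affinity), the hexokinases Hk1 and Hk2, Pfkp, Aldoc, Ldhb and the pyruvate carrier subunit Mpc2 fell. These were 11 of 35 tested members at an adjusted p below 0.05, 4 higher and 7 lower, or 31.4%, against 20.4% of all tested genes (11.5% higher and 8.90% lower). The libraries of the 2 groups did not overlap for 15 of the 35 members, against 30.9% of all tested genes. The median log2 fold change was −0.11 over the members and 0.0039 over all genes.

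With DOX over the same 96 h, Ldhb was 4.96-fold higher than without DOX, Eno3 3.31-fold and Hk1 2.77-fold. Slc16a3 and, close to the threshold (adjusted p = 0.0463), Slc2a1 were lower. Together, the genes named were 5 of 35 members, 14.3%, against 3.10% of all tested genes (2.16% higher and 0.945% lower). The libraries of the 2 groups did not overlap for 14 of the 35 members, against 18.7% of all tested genes. The median was 0.20 over the members and −0.017 over all genes. Without 96 h DOX exp1_2, 3 members were called, and without 96 h DOX exp2_1, 2, all of them higher. Set against 2iL, the DOX group had 13 called members (37.1%; all genes 16.7%, 9.84% higher and 6.83% lower), 8 higher and 5 lower, and 17 of 35 without overlap (all genes 27.6%), with medians of 0.11 and 0.019. Without 96 h DOX exp1_2, 10 members were called, namely 9 of these 13 and Eno1 (0.67, adjusted p = 0.0297). The lowest count, 9, was reached without 2iL exp1_1 or 2iL exp2_1. The 3 comparisons share groups of libraries, so their values for a gene are not independent and are given side by side.

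**Figure D1:**
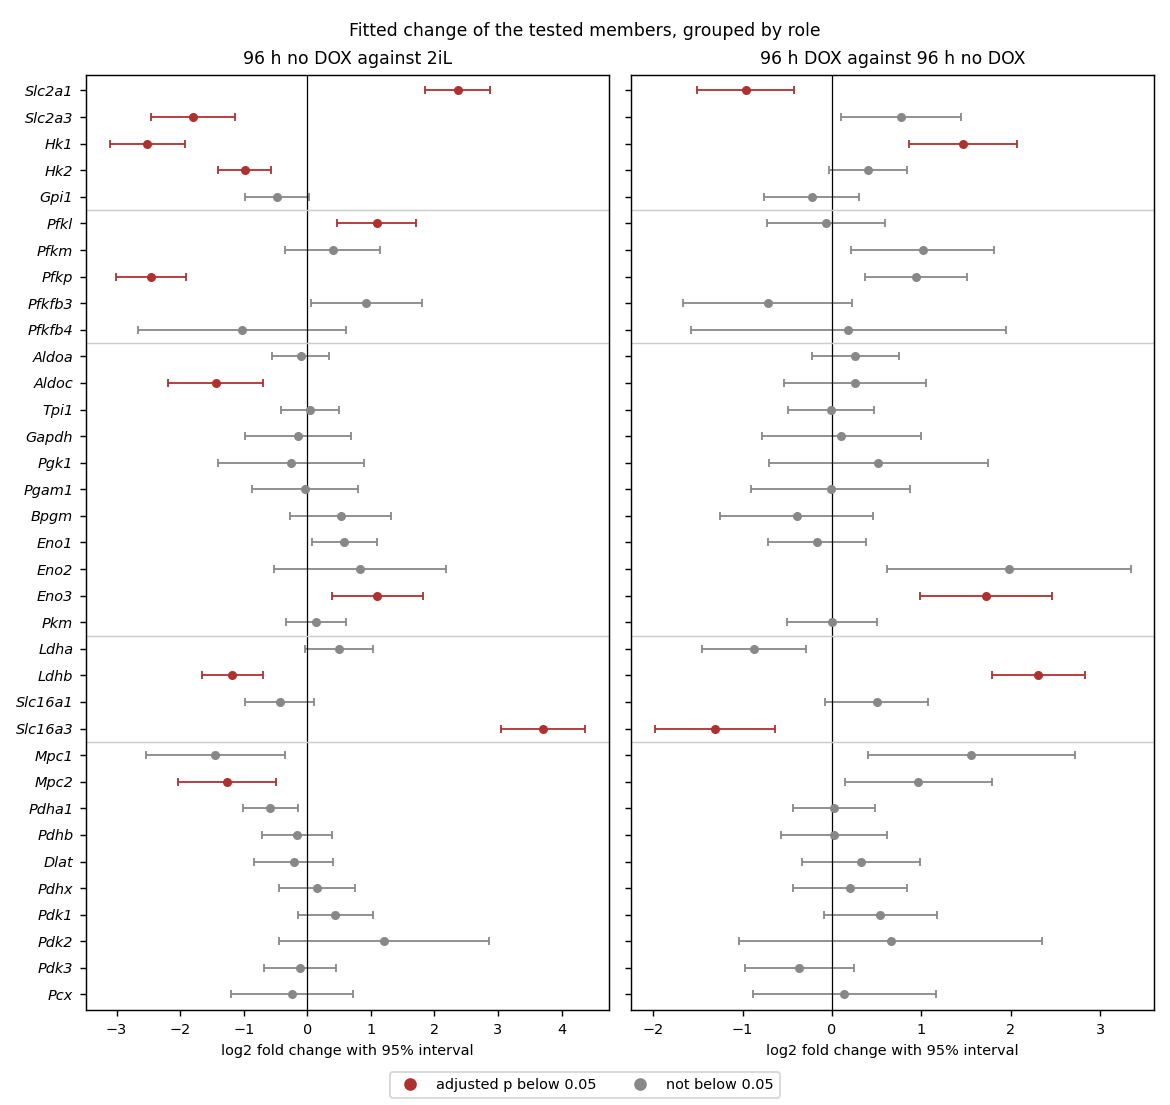
Fitted log2 fold change of the 35 tested members with its 95% interval, for 96 h no DOX against 2iL (left) and 96 h DOX against 96 h no DOX (right), genes ordered by role with lines between roles; red marks an adjusted p below 0.05. Slc16a3 lies farthest right on the left panel at 3.71 and Ldhb farthest right among the called genes of the right panel at 2.31.

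The start regions of 4 of the 5 genes that passed the test in both the removal and the DOX comparison, and of Ldha as the partner of Ldhb, are shown because the first pair, Slc2a1 and Slc16a3, was high without DOX and the second pair, Ldhb and Eno3, was high with DOX. Each run holds 250 bases before and 50 bases after the RefSeq start of transcription on GRCm38.p6, read on the gene's own strand. The coordinates are chr4:119108495-119108794 (plus) for Slc2a1, chr11:120948817-120949116 (plus) for Slc16a3, chr7:46845554-46845853 (plus) for the first of 2 windows of Ldha, chr6:142507908-142508207 (minus) for Ldhb and chr11:70656926-70657225 (plus) for Eno3. Capitals mark ACGTG and GCGTG, the core letters bound by HIF factors, on either strand (so CACGT and CACGC are the same motifs read from the other strand).
Slc2a1: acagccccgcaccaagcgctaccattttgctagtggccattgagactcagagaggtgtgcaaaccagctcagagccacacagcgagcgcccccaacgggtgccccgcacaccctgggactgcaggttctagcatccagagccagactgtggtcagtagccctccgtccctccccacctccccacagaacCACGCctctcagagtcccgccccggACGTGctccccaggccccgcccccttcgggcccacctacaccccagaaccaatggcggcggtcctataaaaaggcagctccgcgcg
Slc16a3: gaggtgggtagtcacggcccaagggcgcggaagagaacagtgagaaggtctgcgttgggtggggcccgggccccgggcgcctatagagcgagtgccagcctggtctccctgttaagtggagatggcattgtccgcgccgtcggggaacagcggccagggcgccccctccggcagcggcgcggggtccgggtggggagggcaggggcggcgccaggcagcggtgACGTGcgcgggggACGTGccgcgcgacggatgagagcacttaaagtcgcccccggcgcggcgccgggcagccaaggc
Ldha: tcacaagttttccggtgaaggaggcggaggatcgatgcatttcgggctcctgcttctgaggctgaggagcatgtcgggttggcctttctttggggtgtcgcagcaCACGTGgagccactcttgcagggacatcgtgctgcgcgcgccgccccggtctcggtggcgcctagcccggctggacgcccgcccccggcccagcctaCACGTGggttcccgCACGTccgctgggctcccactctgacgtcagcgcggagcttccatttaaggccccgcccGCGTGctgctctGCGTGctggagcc
Ldhb: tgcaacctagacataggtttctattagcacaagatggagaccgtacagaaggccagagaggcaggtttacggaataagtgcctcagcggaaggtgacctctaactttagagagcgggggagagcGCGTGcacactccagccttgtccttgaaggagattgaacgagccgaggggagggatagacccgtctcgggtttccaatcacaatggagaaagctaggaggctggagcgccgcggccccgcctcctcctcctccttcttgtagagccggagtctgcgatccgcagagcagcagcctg
Eno3: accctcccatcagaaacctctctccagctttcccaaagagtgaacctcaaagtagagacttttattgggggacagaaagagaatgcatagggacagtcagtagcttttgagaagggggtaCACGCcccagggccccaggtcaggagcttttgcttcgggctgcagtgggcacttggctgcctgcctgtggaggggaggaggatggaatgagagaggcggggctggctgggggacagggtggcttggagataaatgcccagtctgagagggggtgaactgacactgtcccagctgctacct
Slc16a3 held 2 copies of ACGTG, 27 and 14 bases before the start, and Slc2a1 held 1 ACGTG and 1 GCGTG. The Ldha window held 5 matches to ACGTG and 2 to GCGTG; 4 of the 5 come from 2 copies of the palindrome CACGTG, the E-box read by Myc and MLX factors, which is counted once on each strand. Ldhb and Eno3 held 1 GCGTG each. AAGGTCA, the letters of an Esrrb half-site, was searched on both strands and is in none of these 5 windows. Hk1, the other gene called in both comparisons and higher with DOX than without, is not shown. Window 2 of its 2 windows held 2 copies of ACGTG and 3 of GCGTG, and window 1 held neither. Over the 35 members with a window in the table (Slc2a3 is the other gene), 40 of 53 windows held ACGTG or GCGTG, or 75.5%, against 43.8% of all 32851 windows of 300 bases. The E-box was in 13.2% of member windows and 7.15% of all, and AAGGTCA in 3.77% (Eno1 and Tpi1) and 4.72%. Both HIF motifs contain CG, and the median number of CG per window was 20 for the members and 7 for all. A match to these letters is a description and does not show binding.

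Glucose entry was the role with the largest share of called genes after 2iL removal, 4 of 5 beside 20.4% of all genes, and the pair of transporters moved in opposite directions. Slc2a1 (chr4:119108711-119137983, plus strand, GRCm38) was at 59.9, 71.9, 56.8 and 47.3 CPM in 2iL, at 308, 196 and 412 without DOX, and at 140.0, 169 and 161 with DOX. The 3 groups did not overlap: 2iL was lowest, DOX lay between, and 96 h without DOX was highest. Slc2a1 rose after removal by 2.37 ± 0.25 on the log2 scale (SE; adjusted p = 5.87e-07), a 5.16-fold change. With DOX it was lower than without by a log2 fold change of −0.96 ± 0.26 (adjusted p = 0.0463), and it stayed above 2iL by 1.40 ± 0.24 (adjusted p = 0.000369). The lower level with DOX was close to the threshold: the call was lost on leaving out any of 9 of the 10 libraries (log2 fold change −1.20 to −0.69 over all 10, adjusted p up to 0.262; −0.98 and 0.0559 without 96 h DOX exp1_2). It held in 3 of 10 other settings. Those without the call included the experiment as a block (−0.95, adjusted p = 0.0522), limma-voom (−0.91, 0.0618), only the compared groups (−0.96, 0.141) and experiment 1 alone (−0.72, 0.495).

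Slc2a3 (chr6:122727809-122801640, minus strand) ran the other way. It was at 299, 216, 404 and 417 CPM in 2iL, at 67.5, 67.5 and 153 without DOX, and at 148, 214 and 129 with DOX. All 2iL libraries were above all 96 h libraries, and the 96 h groups overlapped. Slc2a3 fell after removal by 1.80 ± 0.31 on the log2 scale (adjusted p = 0.000253). With DOX it was 0.77 ± 0.32 above the level without DOX (adjusted p = 0.242), which passed the threshold only narrowly in 2 of 20 other fits, with the experiment as a block (0.84, adjusted p = 0.04999) and without 96 h no DOX exp2_2 (1.28, adjusted p = 0.04996). Against 2iL it was lower with DOX by −1.03 ± 0.30 (adjusted p = 0.0243), a call lost without 96 h DOX exp1_2 (−0.89, adjusted p = 0.0635), without 96 h DOX exp1_1 (−0.93, 0.0858), and without 2iL exp2_1 (−0.90, 0.0841) or exp2_2 (−0.88, 0.0855). Slc2a3 lies 13.2 kb from Nanog, a naive pluripotency gene, whose level was 220.0 ± 24.3 CPM in 2iL (SD, n = 4), 18.4 ± 4.17 without DOX and 32.8 ± 16.5 with DOX (n = 3 each).

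As a result Slc2a3 made up 83.9% ± 6.55 of the reads of Slc2a1 and Slc2a3 in 2iL (SD, n = 4), 23.6% ± 4.88 at 96 h without DOX and 50.6% ± 5.73 with DOX (n = 3 each). No library of one group reached into another: 75.0% to 89.8%, 18.0% to 27.1% and 44.5% to 55.9%. The exact 95% binomial intervals of single libraries, which cover counting error only, spanned 39.5% to 49.6% in the thinnest library, 96 h DOX exp1_2, with 393 reads of the pair. Such shares are taken from reads at transcript 3′ ends, are not divided by length, and do not depend on the scaling between libraries.

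Hexokinases trap glucose as glucose 6-phosphate, and both measured forms fell after removal. Hk1 (chr10:62268855-62379908, minus strand) was at 121, 117, 143 and 109.8 CPM in 2iL, at 20.6, 12.7 and 31.4 without DOX, and at 63.2, 62.1 and 52.3 with DOX. The groups did not overlap, and DOX again lay between. Hk1 fell by 2.52 ± 0.28 on the log2 scale after removal (adjusted p = 1.59e-06) and was 1.47 ± 0.29 higher with DOX than without (adjusted p = 0.00596); with DOX it was −1.05 ± 0.27 from 2iL (adjusted p = 0.00905). The removal and DOX calls of Hk1 held on leaving out each library and under each of the other 10 settings run; the call against 2iL was lost within experiment 1 (adjusted p = 0.0928).

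Hk2, the inducible and more abundant form here, was at 328, 289, 259 and 277 CPM in 2iL, at 148, 139 and 149 without DOX, and at 194, 199 and 186 with DOX. Hk2 fell by 0.99 ± 0.20 after removal (adjusted p = 0.00111). Its 3 groups did not overlap either, but the step with DOX was small, 0.41 ± 0.21 (adjusted p = 0.373). The difference from 2iL with DOX, −0.58 ± 0.20 (adjusted p = 0.0499), was lost on leaving out any 1 of the 10 libraries (adjusted p up to 0.122). Without 96 h DOX exp1_2 it was −0.55 (adjusted p = 0.0607). Since Hk1 fell further than Hk2, the Hk2 share of their reads was 70.1% ± 3.84 in 2iL, 87.4% ± 4.53 without DOX and 76.6% ± 1.31 with DOX. Gpi1, which turns glucose 6-phosphate into fructose 6-phosphate, was at 382 ± 54.8, 274 ± 76.0 and 234 ± 63.7 CPM in the 3 groups. It passed the main test in no comparison, and its lowest adjusted p there was 0.0519, with DOX against 2iL. In that comparison it was called lower in 4 of 10 other settings (DESeq2 0.0266, limma-voom 0.0387) and on leaving out 2 of the 10 libraries.

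**Figure D2:**
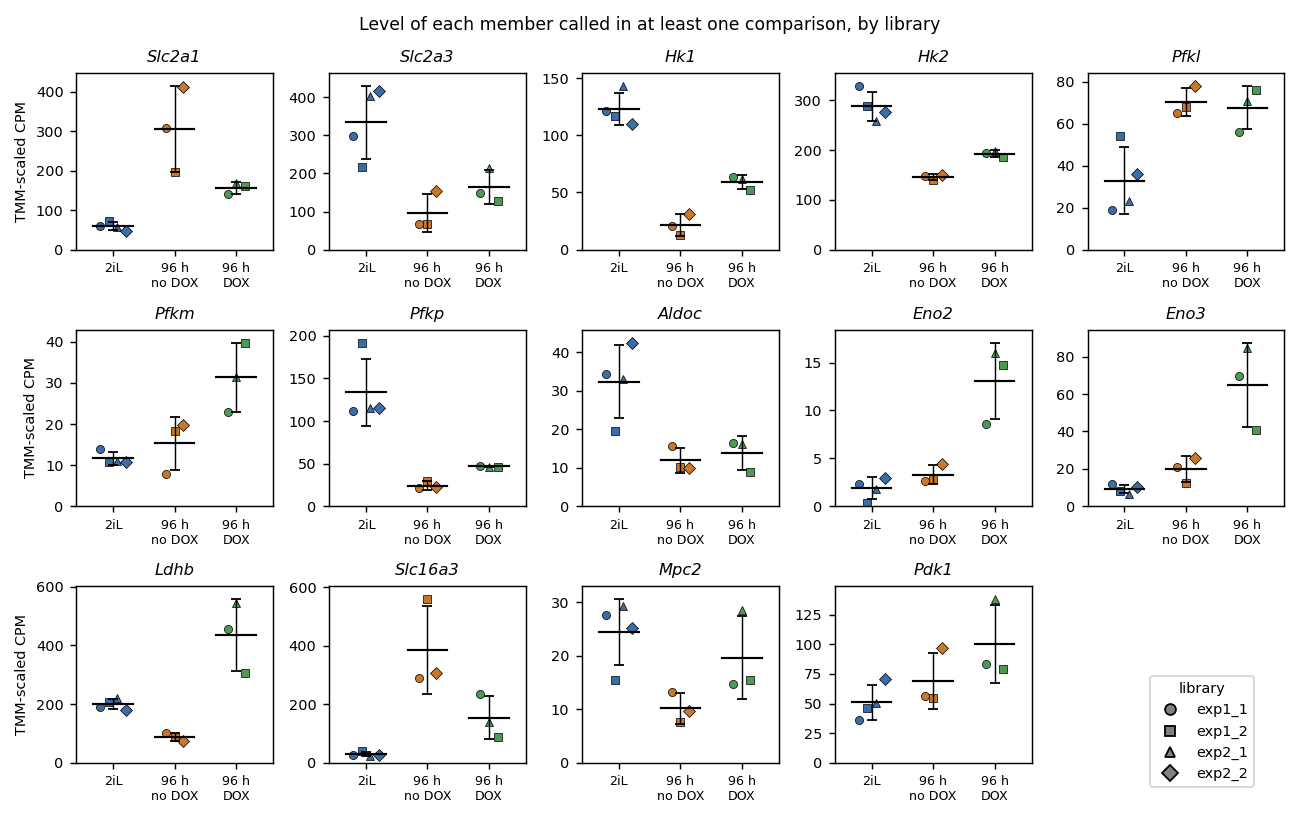
TMM-scaled CPM of the 14 members called in at least 1 of the 3 comparisons, by library; symbols mark the library label, bars the group mean, and whiskers 1 SD (n = 4 in 2iL, n = 3 in each 96 h group). Slc16a3 rises from 22.7 to 40.4 CPM in 2iL to 289.8 to 559 without DOX, and Ldhb is lowest without DOX and highest with DOX.

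At the committed step, phosphofructokinase 1 is built from liver (Pfkl), muscle (Pfkm) and platelet (Pfkp) subunits, and the prevailing subunit changed. Pfkp (chr13:6579768-6648777, minus strand) was at 112, 192, 115 and 115 CPM in 2iL, at 20.8, 29.8 and 22.0 without DOX, and at 47.3, 46.4 and 46.4 with DOX. Each group was separate from the others. Pfkp fell by 2.46 ± 0.27 on the log2 scale after removal (adjusted p = 9.48e-07), was 0.94 ± 0.27 higher with DOX than without (adjusted p = 0.0680, past the threshold with DESeq2 at 0.0293 and on library totals at 0.0364), and was −1.52 ± 0.26 from 2iL with DOX (adjusted p = 0.000269). Exons of Pfkp overlap exons of Pitrm1 on the opposite strand, which had 1357 reads to 2376 of Pfkp. The strand setting of the counting is not known, so it is open how reads in the shared bases were counted.

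Pfkl was at 18.6, 54.1, 23.0 and 35.9 CPM in 2iL, at 65.2, 67.9 and 77.9 without DOX, and at 56.1, 70.7 and 75.9 with DOX. The 2iL libraries were all lower than the 96 h libraries but spread widely, and the 96 h groups overlapped. Pfkl rose after removal by 1.09 ± 0.30 (adjusted p = 0.0112; 0.85 and 0.255 within experiment 1), with no difference past the threshold between DOX and no DOX (−0.064 ± 0.32, adjusted p = 0.950). With DOX it was 1.03 ± 0.30 above 2iL (adjusted p = 0.0220), which was lost without 96 h DOX exp1_2 (0.94, 0.0531) or exp2_1 (0.99, 0.0572) and without 2iL exp1_1 (0.83, 0.0705) or exp2_1 (0.91, 0.0744).

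Pfkm was at 14.0, 10.8, 11.1 and 10.7 CPM in 2iL, at 7.93, 18.3 and 19.7 without DOX, and at 23.1, 31.3 and 39.8 with DOX, where every library exceeded those of both other groups. It rose with DOX against 2iL, by 1.41 ± 0.36 (adjusted p = 0.00922; 1.33 and 0.138 within experiment 1), while the step from no DOX to DOX was 1.01 ± 0.38 (adjusted p = 0.186). Pfkm also overlaps a gene on the other strand, Senp1, with 1359 reads to its own 576. In shares of the 3 subunits' reads, Pfkp was 75.1% ± 2.91 in 2iL, 22.1% ± 3.61 without DOX and 32.4% ± 4.501 with DOX. Pfkl was 17.9% ± 4.46, 64.3% ± 5.45 and 46.3% ± 1.70, and Pfkm 6.98% ± 2.25, 13.6% ± 4.45 and 21.3% ± 3.16, so that the leading subunit was Pfkp in 2iL and Pfkl in both 96 h groups. The PFKFB enzymes, which set the level of the activator fructose 2,6-bisphosphate, were low: Pfkfb3 at 9.91 ± 4.93, 18.9 ± 4.79 and 11.5 ± 3.41 CPM, Pfkfb4 at 6.02 ± 3.73, 2.98 ± 2.25 and 3.12 ± 2.40, and neither passed the test.

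In triose and lower glycolysis, 2 of 11 genes were called after 2iL removal, 18.2% beside 20.4% of all genes, and 1 of 11 with DOX against no DOX, 9.09% beside 3.10%. The abundant enzymes were nearly level. Aldoa, the main aldolase, was at 665 ± 60.96, 618 ± 87.3 and 742 ± 134 CPM in the 3 groups, with a removal change whose 95% interval ran from −0.56 to 0.35 on the log2 scale. Pkm, pyruvate kinase, was at 728 ± 42.5, 799 ± 83.7 and 799.9 ± 217 CPM (interval −0.34 to 0.61). Tpi1, which interconverts the triose phosphates, was at 134 ± 16.7, 138 ± 8.05 and 136 ± 34.9 CPM (interval −0.41 to 0.49).

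Gapdh spread more within groups than between them, from 305 to 540.5 CPM in 2iL, 222 to 483 without DOX and 119 to 673 with DOX, its lowest value being in 96 h DOX exp1_2. Pgk1 (3.02 to 27.7 CPM over all libraries), Pgam1 (22.1 to 81.1) and Bpgm (10.3 to 31.4) likewise overlapped in every comparison. Counting reads with 1 alignment bears on some of these genes: of the 50-base words in the last 400 bases of their coding transcripts, 80.0% for Eno1, 66.7% for Gapdh and 32.0% for Gpi1 also occur in transcripts of other genes (193 genes for Gapdh), and their levels are uncertain. For Mpc1, a gene of pyruvate entry, it was 25.2%, for Ldhb 23.9%, for Pkm 17.4%, for Ldha 15.7%, for Aldoa 14.3% and for Tpi1 13.0%.

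Among the isozymes of this stretch, Aldoc, the aldolase known from brain, was at 34.3, 19.6, 33.2 and 42.5 CPM in 2iL, at 15.6, 10.1 and 9.99 without DOX, and at 16.4, 16.3 and 8.84 with DOX. All 2iL libraries were above all others. Aldoc fell by 1.44 ± 0.36 after removal (adjusted p = 0.00581; −1.08 and 0.206 within experiment 1), and with DOX it was −1.18 ± 0.36 from 2iL (adjusted p = 0.0267), a call lost without any of 5 libraries: 96 h DOX exp1_2 (−0.98, 0.0863) or exp1_1 (−1.29, 0.0509), and 2iL exp1_1 (−1.16, 0.0543), exp2_1 (−1.15, 0.0652) or exp2_2 (−1.004, 0.0993).

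The enolases differed in when they moved. Eno3, the muscle enolase (chr11:70657202-70662513, plus strand), was at 12.0, 8.19, 6.76 and 9.98 CPM in 2iL, at 21.1, 12.5 and 25.9 without DOX, and at 69.4, 84.8 and 40.5 with DOX. The groups formed 3 separate steps. Eno3 was 2.83 ± 0.34 higher with DOX than in 2iL (7.09-fold, adjusted p = 7.60e-06) and 1.73 ± 0.35 higher than without DOX (adjusted p = 0.00787). The DOX call was lost without 96 h DOX exp2_1 (1.502, adjusted p = 0.0513) and within experiment 1 (1.75, 0.0897), and was 1.96 (adjusted p = 0.00201) without 96 h DOX exp1_2. The smaller rise after removal, 1.10 ± 0.34 (adjusted p = 0.0265), was lost without any of 4 libraries: 2iL exp1_2 (1.03, 0.0706) or exp2_1 (0.98, 0.0851), and 96 h no DOX exp1_1 (1.05, 0.0806) or exp2_2 (0.86, 0.135). It was also lost with limma-voom (1.03, 0.0754) and within experiment 1 (0.72, 0.427).

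Eno2, the neuronal enolase, was at 2.33, 0.292, 1.84 and 2.96 CPM in 2iL, at 2.64, 2.80 and 4.41 without DOX, and at 8.56, 15.98 and 14.7 with DOX. Every DOX library was above every other. Eno2 rose with DOX against 2iL by 2.81 ± 0.63 (adjusted p = 0.00381), and its step from no DOX to DOX was 1.98 ± 0.66 (adjusted p = 0.123; DESeq2 0.0327). Eno1, the widely expressed enolase, was at 115 ± 15.1, 172 ± 26.2 and 152 ± 56.8 CPM (adjusted p = 0.105 after removal; 0.0232 without 96 h DOX exp1_2, which does not enter that contrast but enters the shared spread). The Eno3 share of enolase reads was 7.27% ± 1.02 in 2iL, 10.4% ± 3.96 without DOX and 28.2% ± 0.114 with DOX. Of muscle markers, read beside Eno3, 5 together summed to 135 to 232 CPM in 2iL, 14.6 to 23.8 without DOX and 24.7 to 37.5 with DOX, a sum carried by Mylpf (184 ± 38.6, 15.0 ± 4.30 and 17.4 ± 7.58 CPM). The other 4 were low, and 3 of them had their highest mean with DOX: Tnnt3 was at 0 in all 7 libraries without DOX and at 3.33 to 8.10 CPM with DOX, Myh3 at 1.26 ± 1.63, 3.05 ± 1.60 and 4.49 ± 2.86, and Ckm at 0 in 2iL, 0.0979 ± 0.170 without DOX and 1.88 ± 2.65 with DOX. Acta1 was at 0.782 ± 0.343, 1.12 ± 1.32 and 0.261 ± 0.241. Endoderm markers moved with DOX as given above, and the part of either list in the change of Eno3 was not tested.

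After removal and with DOX against no DOX, the member with the largest fitted change belonged to the lactate step, Slc16a3 and Ldhb respectively. Slc16a3 (chr11:120948480-120960868, plus strand), which codes for the exporter MCT4, was at 26.6, 40.4, 22.7 and 27.7 CPM in 2iL, at 289.8, 559 and 307 without DOX, and at 233, 140.1 and 89.1 with DOX. The groups did not overlap: 2iL was lowest and 96 h without DOX highest. Slc16a3 rose by 3.71 ± 0.32 on the log2 scale after removal (13.1-fold, adjusted p = 6.66e-08). With DOX it was −1.31 ± 0.32 from no DOX (adjusted p = 0.0270) and 2.40 ± 0.31 above 2iL (adjusted p = 1.71e-05). The lower level with DOX was not called without 96 h DOX exp1_2 (−1.05, adjusted p = 0.0717) or exp2_1 (−1.23, 0.0950), without 96 h no DOX exp1_2 (−0.93, 0.165), within experiment 1 (−1.36, 0.217), in a fit of only the compared groups (−1.32, 0.0811), or with experiment plus library number as a block (−1.25, 0.139).

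Slc16a1 (MCT1), which carries lactate and pyruvate in either direction, was at 66.6 ± 10.5, 49.1 ± 7.69 and 70.5 ± 25.8 CPM and passed the test in no comparison. The Slc16a3 share of the pair's reads was 30.5% ± 6.34 in 2iL, 88.1% ± 3.02 without DOX and 66.7% ± 17.0 with DOX. Within the DOX group it ran from 47.3% in exp1_2 to 78.9% in exp1_1. Bsg, the chaperone both transporters need at the membrane, was at 704 ± 82.6, 411 ± 114 and 349 ± 173 CPM. Every library of both 96 h groups was below every 2iL library. Bsg was not called after removal or with DOX against no DOX. With DOX against 2iL it was at −1.01 ± 0.31 (adjusted p = 0.0273), a call lost without 96 h DOX exp1_2 (−0.66, 0.0516) and without 2iL exp2_1 (−0.96, 0.0703) or exp2_2 (−0.96, 0.0660).

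Ldhb (chr6:142490249-142507957, minus strand), the subunit that favours lactate oxidation, was at 190.2, 206, 219 and 180.0 CPM in 2iL, at 102, 86.3 and 75.2 without DOX, and at 455, 545 and 304 with DOX. No library of one group overlapped another, and here DOX lay above both. Ldhb fell after removal by 1.18 ± 0.23 (adjusted p = 0.000862; −1.09 and 0.0523 within experiment 1). It was 2.31 ± 0.25 higher with DOX than without (adjusted p = 2.01e-05), a call that held on leaving out each library (2.13 to 2.51) and under each of the other 10 settings, and 1.13 ± 0.22 higher than in 2iL (adjusted p = 0.00124; 0.95 and 0.104 within experiment 1). The words that the 3′ end of Ldhb shares are all with 1 other gene.

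Ldha, the subunit that favours pyruvate reduction, was at 425, 753, 596 and 476 CPM in 2iL, at 765, 925 and 687 without DOX, and at 528, 497 and 274 with DOX. The 96 h groups were separate, and both 2iL and DOX libraries lay mostly lower. Ldha did not pass the test after removal (0.49 ± 0.26, adjusted p = 0.205) or with DOX against no DOX (−0.87 ± 0.28, adjusted p = 0.110; DESeq2 0.0414). The Ldhb share of the reads of both was 26.7% ± 3.87 in 2iL, 10.05% ± 1.62 without DOX and 50.4% ± 3.59 with DOX, with ranges of 21.5% to 30.9%, 8.53% to 11.8% and 46.3% to 52.6% that did not meet. In 96 h DOX exp1_2 the share was 52.6% (exact 95% interval 49.1% to 56.2%, counting error only) against 52.3% in DOX exp2_1, while the sum of endoderm markers was highest there; the part of those markers in the result was not tested.

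**Figure D3:**
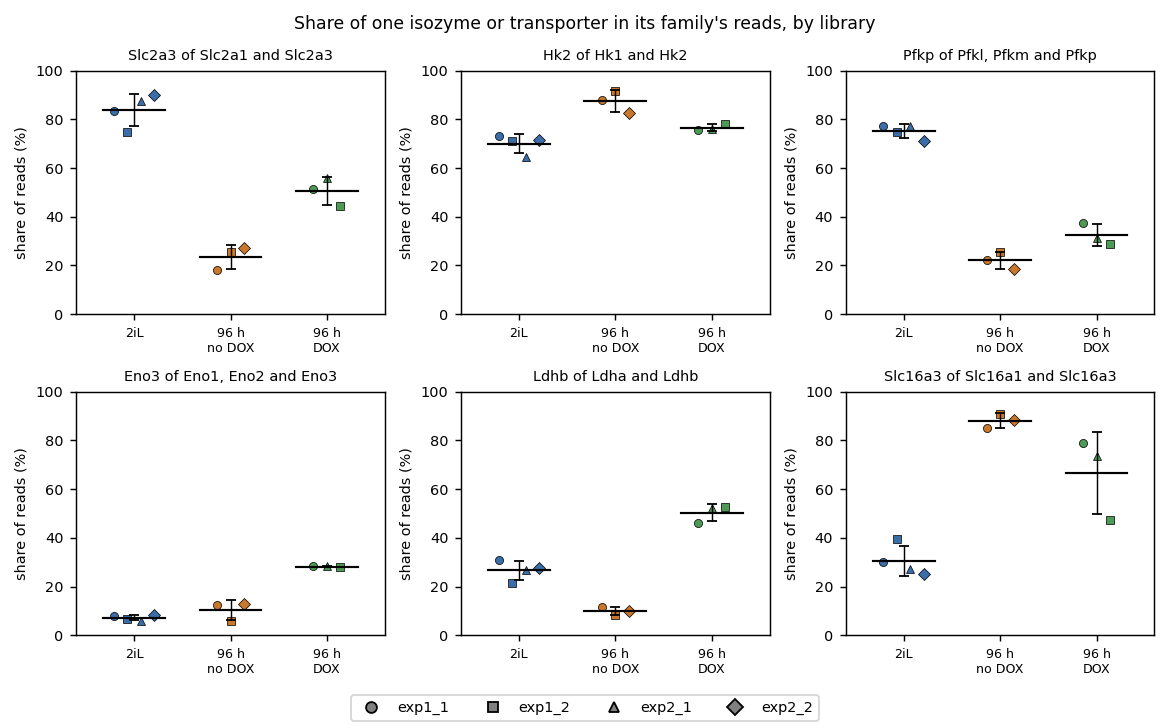
Share of reads taken by 1 isozyme or transporter within its family, in percent, by library; bars are group means and whiskers 1 SD (n = 4, 3 and 3). The 2iL, 96 h no DOX and 96 h DOX libraries are separate for Slc2a3, Pfkp, Ldhb, Hk2 and Slc16a3, and for Eno3 the 3 DOX libraries lie between 28.1% and 28.3%.

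At the entry of pyruvate into mitochondria, 1 of 10 genes was called after removal, where 20.4% of all genes were, and none of the 10 with DOX against no DOX, where 3.10% of all genes were (0 called by edgeR, by DESeq2 and by limma-voom; Mpc1 and Mpc2 had unadjusted p of 0.0108 and 0.0234). Mpc2, a subunit of the mitochondrial pyruvate carrier, was at 27.6, 15.5, 29.2 and 25.1 CPM in 2iL, at 13.2, 7.55 and 9.70 without DOX, and at 14.7, 28.6 and 15.5 with DOX. The groups without DOX did not overlap. Mpc2 fell after removal by 1.27 ± 0.37 (adjusted p = 0.0181), a call lost without 2iL exp2_1 (−1.16, 0.0587) or 96 h no DOX exp1_2 (−1.08, 0.0889) or exp2_2 (−1.23, 0.0573) and within experiment 1 (−1.07, 0.220). Its partner Mpc1 was at 8.25 ± 2.18, 3.02 ± 1.23 and 9.12 ± 3.02 CPM, a removal change of −1.45 ± 0.52 (adjusted p = 0.0560; 0.0339 with the experiment as a block).

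Of the pyruvate dehydrogenase complex, the catalytic subunit Pdha1 was at 298 ± 32.4, 199 ± 5.24 and 201 ± 37.5 CPM (removal −0.58 ± 0.21, adjusted p = 0.0525; DESeq2 0.0134). Pdhb was at 47.2 ± 9.39, 42.2 ± 10.2 and 42.5 ± 7.89 CPM, the acetyl transfer subunit Dlat at 37.6 ± 6.95, 32.5 ± 13.6 and 40.4 ± 5.22, and the binding subunit Pdhx at 32.3 ± 11.7, 36.1 ± 7.10 and 41.4 ± 2.03. None of these 3 passed the test in any comparison. Pcx, pyruvate carboxylase, ranged from 7.99 to 31.4 CPM with overlap in every comparison.

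The kinases that switch the complex off were led by Pdk1, a known HIF target. Pdk1 was at 35.97, 46.5, 50.4 and 70.97 CPM in 2iL, at 56.4, 54.8 and 96.7 without DOX, and at 83.4, 138 and 79.6 with DOX. DOX libraries were all above 2iL, and the no DOX libraries overlapped both. Pdk1 rose with DOX against 2iL by 0.98 ± 0.28 (adjusted p = 0.0200; 1.12 and 0.0108 without 96 h DOX exp1_2), which was lost without 96 h DOX exp2_1 (0.69, 0.1398), without 2iL exp1_1 (0.85, 0.0704) or exp1_2 (0.91, 0.0601), and within experiment 1 (0.99, 0.0961). Pdk3 was at 30.3 ± 2.98, 28.0 ± 1.88 and 21.7 ± 3.04 CPM and Pdk2 at 1.80 ± 0.962, 4.16 ± 5.18 and 6.78 ± 1.58, without a call. In shares of the 3 kinases' reads, Pdk1 made up 60.6% ± 6.71, 67.4% ± 9.03 and 77.4% ± 3.08.

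Summed over all 36 members, the level differed between groups by less than the spread between libraries: 4963 ± 220 CPM in 2iL, 4942 ± 329 without DOX and 4957 ± 915 with DOX, or 0.429% to 0.622% of the reads of a library. By role, glucose entry summed to 1186 ± 44.4, 842 ± 131 and 806 ± 83.5 CPM, with every 2iL library above every 96 h library. Lactate formation and transport summed to 857 ± 158, 1314 ± 274 and 1093 ± 283, with every library without DOX above every 2iL library. Pyruvate entry summed to 554 ± 39.3, 444 ± 24.3 and 505 ± 88.2, again separate between 2iL and no DOX. This sum includes the kinases Pdk1, Pdk2 and Pdk3, which switch the complex off. Its largest member was Pdha1, at 298 ± 32.4, 199 ± 5.24 and 201 ± 37.5 CPM. The committed step summed to 196 ± 56.0, 132 ± 16.5 and 161 ± 15.6, and triose and lower glycolysis to 2170.1 ± 66.96, 2209.7 ± 172 and 2393 ± 512. Sums are descriptions and were not tested. The lowest DOX library for the whole set, 3959 CPM, was exp1_2.

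**Figure D4:**
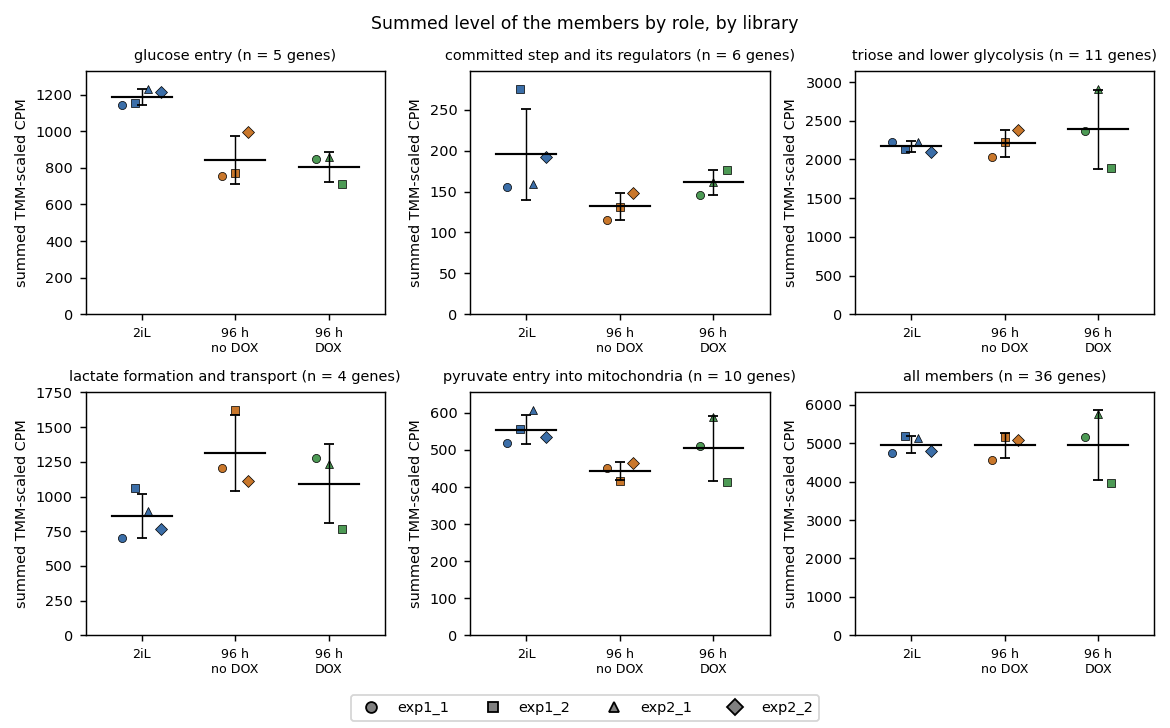
Summed TMM-scaled CPM of the members by role and over all 36, by library; bars are means and whiskers 1 SD (n = 4, 3 and 3), and each axis starts at 0. Glucose entry is highest in 2iL, lactate formation and transport in the libraries without DOX, and the sum over all members is nearly equal, with the DOX libraries spread from 3959 to 5757 CPM.

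The labels name 2 experiments; experiment 1 held 2 libraries of each group, and experiment 2 held 2 libraries of 2iL and 1 of each 96 h group. Changes of the main members kept their direction in both. Slc2a1 rose after removal by 1.93 in experiment 1 and 2.98 in experiment 2, Slc16a3 by 3.66 and 3.60, and Hk1 was at −2.85 and −2.01. With DOX against no DOX, Ldhb was at 2.02 and 2.86, Eno3 at 1.73 and 1.71, Hk1 at 1.81 and 0.98, and Slc16a3 at −1.38 and −1.13. Of the 35 members, 0 passed an edgeR test of the difference between experiments in any comparison, with 3, 0 and 1 at an unadjusted p below 0.05 in the removal, DOX and DOX against 2iL comparisons (all genes called 0.00892%, 0 and 0). The 3 were Slc2a1, Dlat and Pcx, and the 1 was Bpgm. This test had 4 residual degrees of freedom.

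Of the regulators of glycolytic transcription, 4 of 20 tested rose and 2 fell after removal, 30% beside 20.4% of all genes (limma-voom called 3 higher and 2 lower). The RNA-binding proteins Lin28b and Lin28a rose by 3.43 ± 0.44 and 2.29 ± 0.21 (adjusted p = 8.38e-06 and 1.44e-07). Egln3, a HIF prolyl hydroxylase that is itself a HIF target, rose by 1.92 ± 0.64 (adjusted p = 0.0390), and Vhl, which marks HIF for degradation, fell by 1.24 ± 0.38 (adjusted p = 0.0229). Esrrb itself fell by 3.78 ± 0.33 (adjusted p = 7.58e-08). With DOX against no DOX, Lin28a fell by 0.89 ± 0.22 (adjusted p = 0.0327). With DOX against 2iL, 5 were higher, among them Egln3 (2.29 ± 0.65, adjusted p = 0.0183), and 2 lower. The list's share called was 10% with DOX against no DOX and 35% with DOX against 2iL, beside 3.10% and 16.7% of all genes, and its median in the 3 comparisons was −0.13, −0.030 and 0.079. Several of these calls were lost on leaving out any 1 of several libraries, for Lin28a also 2iL libraries that do not enter the contrast. After removal, Egln3 was not called without 2iL exp1_1 (1.64, 0.0938) or exp2_1 (1.62, 0.112) or no DOX exp1_1 (1.58, 0.176) or exp2_2 (1.87, 0.0853), nor Vhl without 2iL exp1_1 (−1.07, 0.0728) or exp1_2 (−1.19, 0.0551) or no DOX exp2_2 (−1.06, 0.1002). Lin28a with DOX against no DOX was lost without any of 6 libraries: 2iL exp2_1 (−0.87, 0.0598) or exp2_2 (−0.87, 0.0583), no DOX exp1_1 (−0.95, 0.0818), exp1_2 (−0.78, 0.107) or exp2_2 (−0.92, 0.0814), and DOX exp2_1 (−0.79, 0.124). Egln3 against 2iL was lost without DOX exp2_1 (2.04, 0.0740) or 2iL exp2_1 (2.02, 0.0558).

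Of HIF targets outside glycolysis, 4 of 17 tested rose and 2 fell after removal, 35.3% beside 20.4% of all genes. Bnip3, a mitophagy receptor, rose by 1.60 ± 0.39 (adjusted p = 0.00500), the hormone gene Stc2 by 1.51 ± 0.40 (0.00916) and the mTORC1 inhibitor Ddit4 by 1.40 ± 0.30 (0.00160), while Kdm3a, a histone demethylase, fell by 1.77 ± 0.28 (0.000108) and the Myc antagonist Mxi1 by 0.87 ± 0.30 (0.0457). Mxi1 was not called on leaving out any of 7 libraries, namely each of the 2iL libraries exp1_1 (−0.76, 0.115), exp1_2 (−0.86, 0.0863), exp2_1 (−0.94, 0.0623) and exp2_2 (−0.93, 0.0620) and the no DOX libraries exp1_1 (−0.81, 0.147), exp1_2 (−0.83, 0.121) and exp2_2 (−0.99, 0.0600). With DOX against no DOX 0 of 17 passed with edgeR, where 3.10% of all genes did (2 at an unadjusted p below 0.05; 1 called by DESeq2 and 0 by limma-voom), and with DOX against 2iL 2 were higher and 1 lower, 17.6% beside 16.7%; of these, P4ha2, a collagen prolyl hydroxylase, was not called without DOX exp1_2 (1.78, adjusted p = 0.145). The median of the list was −0.083, 0.26 and 0.44.

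In the routes that branch off, the pentose phosphate list had 2 of 10 higher and 2 lower after removal. Prps2 rose by 1.09 ± 0.28 (adjusted p = 0.00810) and Pgls by 0.89 ± 0.27 (0.0216), and Tigar, a fructose 2,6-bisphosphatase, fell by 1.02 ± 0.22 (0.00200) and Taldo1 by 0.85 ± 0.22 (0.00810). Of 9 genes of the shuttles that carry cytosolic NADH into mitochondria, 2 fell after removal, the aspartate carrier Slc25a12 by 1.12 ± 0.33 (0.0179) and Got1 by 0.72 ± 0.21 (0.0171). Among 12 other isozymes and partners, 2 fell after removal, Ldhc by 2.46 ± 0.79 (0.0303) and the phosphatase Pdp2 by 1.10 ± 0.25 (0.00299). Of 10 glycogen genes, Pgm1 rose after removal by 1.48 ± 0.42 (0.0149). After removal 40%, 22.2%, 16.7% and 10% of these 4 lists were called, beside 20.4% of all genes. With DOX against no DOX, where 3.10% of all genes were called, they had 0 calls with edgeR, with 2, 2, 1 and 1 genes at an unadjusted p below 0.05 in the order given, and DESeq2 called 1, 1, 0 and 1. The p-values given for single genes here are adjusted. Without no DOX exp1_2, Pgls (0.54, 0.198), Slc25a12 (−1.12, 0.0526), Got1 (−0.69, 0.0561) and Ldhc (−2.22, 0.130) were not called after removal. The same held without no DOX exp1_1 for Slc25a12 (−1.07, 0.0709), Got1 (−0.75, 0.0559) and Ldhc (−2.59, 0.0879), and without no DOX exp2_2 for Got1 (−0.72, 0.0511), Ldhc (−2.59, 0.0720) and Pgm1 (1.22, 0.0898). Of the 2iL libraries, exp1_1 and exp2_1 ended the calls of Pgls (0.84, 0.0649 and 0.81, 0.0790) and Slc25a12 (−0.91, 0.0672 and −1.03, 0.0572), and exp2_2 that of Ldhc (−2.23, 0.0867).

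Downstream, 2 of 17 TCA cycle genes fell after removal, Idh2 by 1.46 ± 0.23 (adjusted p = 7.64e-05) and Sdha by 0.78 ± 0.20 (adjusted p = 0.00730). Idh2 was higher with DOX than without by 1.00 ± 0.24 (adjusted p = 0.0214), and Idh3a, a subunit of the NAD-linked isocitrate dehydrogenase, by 1.31 ± 0.34 (adjusted p = 0.0377). Idh3a rested on 96 h DOX exp1_2, without which it was at 0.74 (adjusted p = 0.263), and was also lost without any library of 2iL but exp2_2 (1.31, 1.31 and 1.33; adjusted p 0.0503, 0.0512 and 0.0532) or of no DOX (1.48, 1.30 and 1.15; 0.0734, 0.0954 and 0.169). Idh2 was 1.14 (adjusted p = 0.00641) without DOX exp1_2 and lost its call without DOX exp1_1 (0.93, 0.0672) or exp2_1 (0.94, 0.0700) or any no DOX library (1.07, 1.03 and 0.91; 0.0701, 0.0548 and 0.109). The TCA list had 11.8% called in both comparisons, beside 20.4% and 3.10% of all genes, and with DOX limma-voom called 1 of its genes. Of 5 gluconeogenesis genes, 1 passed with DOX against no DOX: Fbp2, the muscle fructose bisphosphatase, which reverses the phosphofructokinase step. Its level was 2.27 ± 1.59 CPM in 2iL, 2.70 ± 2.02 without DOX and 41.3 ± 10.3 with DOX, so that DOX stood above no DOX by 3.94 ± 0.57 on the log2 scale (adjusted p = 0.000328; 4.12 and 0.000202 without 96 h DOX exp1_2).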

How the data were processed

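The 10 libraries of the E14 line were made by 3′ digital gene expression sequencing of polyadenylated RNA. The deposited files hold raw counts of uniquely aligned reads per gene, 1 file for each library; per the submitters' processing notes, bcl2fastq, STAR 2.6.0a, HTSeq and the mm10 build were used, while the annotation release and the way strand was handled are not stated there. The 5 HTSeq summary lines, 62.7% to 68.4% of all reads (mostly reads with several alignments), were left out.

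Genes passing filterByExpr (minimum count 10) were scaled by TMM and fitted with edgeR 4.0.16 (quasi-likelihood, robust) over all 10 libraries under R 4.3.3, and group means were contrasted. Called means a Benjamini-Hochberg adjusted p below 0.05 over 11215 genes, two-sided; ± after a log2 fold change is the SE, and ± after a level or share is the SD. All adjusted p-values are edgeR's unless DESeq2 1.42.0 or limma 3.58.1 is named. The fit was tested on simulated counts. Other scalings, filters, tools, blocks and left-out libraries were tried. Gene positions are from GENCODE on GRCm38, and start regions from RefSeq GRCm38.p6.

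The members and lists were chosen with earlier results of these data known. All members are named; of the other pathway genes, at most 3 called genes per direction, list and comparison, with the largest change are named where their mean reached 5 CPM in either group, and 1 gene that this rule would name is not reported here. The libraries of an experiment were checked for pairing: deviations from group means correlated at −0.154 to 0.205 over 17 pairs of the same experiment, with 4 pairs over 0.1, so no pairing was taken.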

Additional observations from a re-analysis of the deposited data

Results flagged for a closer look

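In 2iL, the group of 4 libraries, 5 of 36 members had 1 library far from the others by Dixon's criterion, which chance meets in about 1 group of 20. Pfkp was at 192 CPM in exp1_2 and at 112 to 115 in the others. Slc16a1 was at 82.4 CPM in exp2_2 and at 60.5 to 61.9 in the others. Pdhx was at 49.6 CPM in exp1_1 against 24.6 to 28.7, Pdk3 at 34.7 in exp2_1 against 28.5 to 29.2, and Pfkm at 14.0 in exp1_1 against 10.7 to 11.1. The high libraries were exp1_1 for 2 of the genes and a different library for each of the other 3. Groups of 3 were not tested.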

How the results depend on the processing

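Of 697, 699 and 699 values of single members under other settings in the removal, DOX against no DOX and DOX against 2iL comparisons, 676, 668 and 649 kept their direction and call, 13, 24 and 42 lost the call, 8, 7 and 8 gained one, and 0 reversed. Within experiment 1 alone, which has fewer libraries, 6 members were called after removal in place of 11, 2 with DOX against no DOX in place of 5, and 5 with DOX against 2iL in place of 13. For DOX against no DOX, DESeq2 called 8 (5 higher, 3 lower), and a fit of only the compared groups called 3; the cause was not tested. Leaving out each library gave 9 to 13, 2 to 5 (2 without 96 h DOX exp2_1) and 9 to 13 called members. The count of members that differed between experiments was 0, and 0 to 1 on leaving out each library: without 96 h DOX exp1_1, Gapdh differed for DOX against 2iL by 2.58 (experiment 2 minus 1, adjusted p = 0.0208).

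With the experiment as a replicate block, 12, 5 and 14 members were called, and with a replicate block of experiment plus library number 3 were called for DOX against no DOX. Libraries with the same label correlated at −0.0953 to 0.205 over 8 pairs, 1 of them over 0.1. So few libraries cannot show whether a shared label means a shared origin, and the labels do not say.

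Over all genes, 2289, 348 and 1870 were called, and 1226, 108 and 926 within experiment 1. For DOX against no DOX this was 564 with no filter, 563 with DESeq2, 212 with only the compared groups, 159 with the block of experiment and library number, and 161 or 181 on leaving out no DOX exp1_1 or exp2_2. Scaling by library totals moved the median of all genes for DOX against 2iL by 0.15 and the split from 1104 higher and 766 lower (59.0% higher) to 1416 and 582 (70.9%). Genes with few reads, such as Pfkfb4, Pdk2 and Mpc1, and the thin library 96 h DOX exp1_2 limit what could be detected. Calls of the other pathway genes were also refitted without each library, an alternative chosen after seeing the data, and 0 reversed.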
